A study of Saccharomyces cerevisiae with 27 samples.

Results

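Thiamine (vitamin B1) genes of budding yeast, Saccharomyces cerevisiae, are described here across 5 comparisons, together with a gene for the vitamin B6 precursor of thiamine. By their labels, the comparisons concern the fatty acid desaturase gene OLE1, its activators Spt23 and Mga2, and oxygen supply. The 10 genes are THI2, THI3, THI4, THI6, THI7, THI20, THI73, THI80, PHO3 and SNZ2. They are 10 of the 6709 genes listed in the authors' deposited table and were found there by gene name. They were chosen by their log2 fold changes and q values in these same comparisons, for changes in opposite directions, so their changes are given as a description and no test is made of them. The lists of related genes used further on were likewise drawn up with earlier results of these data known.

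Poly-A selected RNA from 27 libraries had been sequenced, in 9 groups of 3 that the submitters describe as biological replicates, all grown in CSM medium. The labels give S288C as the strain of every group. OLE1met0 and OLE1met250 carry the genotype POLE1::PMET3 integration, which puts the fatty acid desaturase gene OLE1 behind the methionine-repressed MET3 promoter. Both treatment labels of this pair read 0 for methionine (unrepressed for OLE1met0, repressed for OLE1met250), whereas the title carries the number 250 and the file header names the group as the strain with methionine. The groups spt23p90 and mga2p90 carry the plasmids pCM188-SPT23p90 and pCM188-MGA2p90 and were grown without doxycycline, so that the processed p90 fragment of Spt23 or Mga2, activators of OLE1, was expressed. Their references, spt23p90-dox and mga2p90-dox, carry the same plasmids with doxycycline, which represses the fragment, so the fragment and the absence of the drug cannot be told apart. The sources used here do not say whether these strains keep their chromosomal SPT23 and MGA2. BY, ArgonST and ArgonLT are the background strain BY4742, grown aerobically, for 90 min under argon, or in a microfermenter as long-term hypoxic exposure. ArgonST and ArgonLT are compared with the same BY libraries, and ArgonLT differs from BY in the culture vessel as well.

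Thiamine diphosphate is the cofactor of pyruvate decarboxylase, transketolase and several oxo-acid dehydrogenases. Yeast builds it from a thiazole, made by Thi4, and a pyrimidine, which the Thi5 family of enzymes makes from histidine and pyridoxal phosphate, the active form of vitamin B6. Thi20 phosphorylates the pyrimidine, Thi6 joins thiazole and pyrimidine to thiamine monophosphate, and Thi80 attaches a diphosphate to free thiamine. Cells also take thiamine up through the transporter Thi7, after the acid phosphatase Pho3 has released it from its phosphates outside the cell. The genes are known to be switched off by ample thiamine and to need the activators Thi2 and Pdc2 and the cofactor-sensing protein Thi3.

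Every value below is a log2 fold change or q value of the authors' deposited table, which gives 1 value per gene and comparison. Values per library, counts and expression levels were not used here, so no sample values, SD or n can stand beside a gene, the depth is unknown, and the spread between the 3 libraries of a group enters through the authors' q alone. Fewer cells with a transcript and less transcript per cell cannot be told apart in such bulk samples. A gene is called higher or lower where the q, an adjusted p from Cuffdiff, was under 0.05, and the words rose and fell are used of such genes alone. A q of 1 was taken to mean that a gene was not tested. SPT23 was higher with its own fragment (log2 2.55) and MGA2 with its own (3.73), in the direction of their labels. OLE1 was called higher with the SPT23 fragment (1.11), with the MGA2 fragment (2.18), in ArgonST (0.72) and in ArgonLT (3.20). In OLE1met250, however, OLE1 had -0.03 at a q of 0.925, while MGA2 was called higher at 4.33 (q 0.000304), above its value with its own fragment. MGA2 was also called lower with the SPT23 fragment (-1.46) and higher in ArgonLT (2.23).

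**Figure D1:**
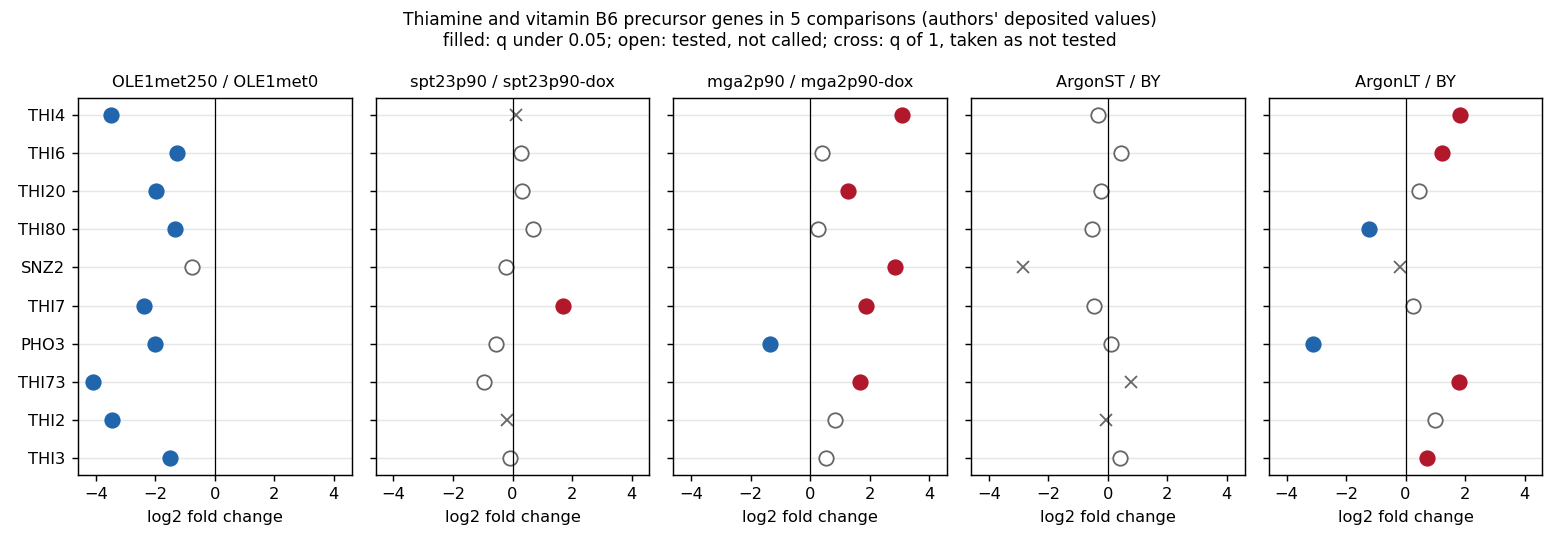
Log2 fold change (x axis) of the 10 genes (y axis, ordered as synthesis, uptake and regulators) in each of the 5 comparisons, from the authors' deposited table. Filled points passed a q under 0.05 (blue lower, red higher), open points did not, and crosses have a q of 1. All 10 points lie below 0 for OLE1met250, from -4.10 for THI73 to -0.78 for SNZ2, while for the MGA2 fragment 9 lie above 0 and PHO3 is at -1.35.

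In OLE1met250 against OLE1met0, 9 of the 10 genes fell and none rose. THI73 was 17.2-fold and THI4 11.2-fold lower, THI2 had a log2 of -3.46, and SNZ2 was the gene not called (log2 -0.78, q 0.0769). Their median log2 fold change was -2.00 beside -0.01 over all 6065 genes tested, and 14.5% of all tested genes were called lower and 16.7% higher in the authors' deposited table. Among the 882 genes called lower, THI73 had the second-largest change, THI4 the seventh and THI2 the eighth. By the design, methionine was the agent meant to repress OLE1 through the MET3 promoter, but neither OLE1 (-0.03, q 0.925) nor MET3 itself (0.36, q 0.274) was called lower. MGA2 was called higher, at 4.33 (q 0.000304), and both treatment labels read 0 for methionine, so what differed between these groups is uncertain. If methionine did differ, a direct effect of the amino acid and an effect through OLE1 cannot be told apart by this design.

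With the MGA2 fragment expressed, THI4, SNZ2, THI7, THI73 and THI20 rose and PHO3 fell, out of 10 genes tested. THI4 was 8.41-fold and SNZ2 7.21-fold higher, while PHO3 was 2.55-fold lower. The median of the 10 was 1.06 on the log2 scale beside -0.02 over 5606 tested genes, of which 12.2% were called higher and 8.58% lower in the authors' deposited table. THI2, THI3, THI6 and THI80 had positive values that did not pass, between 0.26 for THI80 and 0.85 for THI2.

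With the SPT23 fragment, 1 of 8 tested genes rose, the transporter gene THI7, by 1.68 on the log2 scale (3.21-fold), and none fell. The median of the 8 was 0.09 beside -0.04 over 5626 tested genes, and 6.86% of those were called higher and 5.49% lower in the authors' deposited table. THI4 and THI2 had a q of 1. The difference between the effects of the MGA2 and SPT23 fragments was not tested, as the table holds no errors from which to test it.

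After 90 min under argon, none of the 7 tested genes was called by the authors' Cuffdiff q, and the table gives no unadjusted p to count by. Their log2 values lay between -0.52 for THI80 and 0.43 for THI6, with a median of -0.22 beside 0.05 over 5474 tested genes. In this comparison 4.86% of all tested genes were called higher and 2.41% lower in the authors' deposited table. THI2, THI73 and SNZ2 had a q of 1.

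In long-term hypoxia, THI4, THI73, THI6 and THI3 rose and PHO3 and THI80 fell, out of 9 genes tested. THI4 was 3.56-fold and THI73 3.47-fold higher, while PHO3 was 8.73-fold lower, the seventh-largest of 1046 finite falls. The median of the 9 was 0.74 beside 0.09 over 5702 tested genes, of which 24.1% were called higher and 18.4% lower in the authors' deposited table. THI2 was at 1.00 without passing (q 0.0719), and SNZ2 had a q of 1.

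THI4 and SNZ2 encode enzymes of the first steps of synthesis. THI4 (YGR144W, chromosome VII, 780399 to 781379, plus strand, 1 coding exon) encodes the thiazole synthase, which gives up a sulfur atom of its own in the reaction. In the authors' deposited table THI4 stood at -3.48 in OLE1met250 (q 0.000304), 3.07 with the MGA2 fragment (q 0.0175) and 1.83 in ArgonLT (q 0.00319). It was at -0.34 in ArgonST (q 0.652) and at 0.11 with the SPT23 fragment, where the q was 1. The rise with the MGA2 fragment had a weak q for its size: of the 20 genes called higher there with a finite log2 of at least 3, 19 had a lower q than THI4 and 16 had the lowest q of the table.

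SNZ2 (YNL333W, chromosome XIV, 13267 to 14163, plus strand, 1 coding exon) belongs to a family of subunits of pyridoxal phosphate synthase, the source of the B6 vitamer that enters the pyrimidine. It lies between SNO2, the gene of the partner subunit, and THI12, a gene of the Thi5 family. SNZ2 rose by 2.85 with the MGA2 fragment (q 0.00968) and was called in no other comparison of the authors' deposited table, with -0.78 in OLE1met250 (q 0.0769) and -0.21 with the SPT23 fragment (q 0.765). The values of -2.86 in ArgonST and -0.18 in ArgonLT came with a q of 1.

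SNZ2 and SNZ3 differ at 6 of 897 coding bases (99.3% identity) and share a run of 398 identical bases, so reads of the pair can be split between them and the value of SNZ2 is uncertain. A stretch of 60 bases that holds 4 of the 6 differences is shown for both, because it is where most of the bases that tell the copies apart lie. The capitals mark the differing bases, and both are plus strand, coding bases 748 to 807, from the RefSeq genome of build R64, at chrXIV:14014-14073 for SNZ2 and chrVI:12110-12169 for SNZ3.
SNZ2: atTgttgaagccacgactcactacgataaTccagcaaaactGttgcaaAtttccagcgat
SNZ3: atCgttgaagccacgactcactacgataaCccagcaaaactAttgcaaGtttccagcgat
SNZ3 had 1.86 with the MGA2 fragment (q 0.00453) in the authors' deposited table, in the same direction as SNZ2, and -0.81 in OLE1met250 (q 0.0586). SNZ1, which has 71.1% identity to SNZ2 and shares no identical run longer than 14 bases with it, is the less ambiguous gene of the family.

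The genes of the later steps, THI20, THI6 and THI80, all fell in OLE1met250. THI20 (YOL055C, chromosome XV, 224420 to 226075, minus strand, 1 coding exon), the kinase of the pyrimidine and its phosphate, fell by 1.97 in OLE1met250 (q 0.000304) and rose by 1.27 with the MGA2 fragment (q 0.000304). Its other values in the authors' deposited table were 0.32, -0.22 and 0.44 for the SPT23 fragment, ArgonST and ArgonLT, and none passed. THI6 (YPL214C, chromosome XVI, 148569 to 150191, minus strand, 1 coding exon), which joins thiazole and pyrimidine, fell by 1.27 in OLE1met250 and rose by 1.23 in ArgonLT (both q 0.000304). It was at 0.27, 0.40 and 0.43 with the SPT23 fragment, with the MGA2 fragment and in ArgonST. THI80 (YOR143C, chromosome XV, 601383 to 602342, minus strand, 1 coding exon), the thiamine pyrophosphokinase, fell by 1.34 in OLE1met250 (q 0.000826) and by 1.24 in ArgonLT (q 0.00359). Its values of 0.70, 0.26 and -0.52 with the SPT23 fragment, with the MGA2 fragment and in ArgonST did not pass. In ArgonLT, then, the gene of the joining enzyme was called higher and that of the last kinase lower.

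The uptake genes were called in different directions. THI7 (YLR237W, chromosome XII, 612367 to 614163, plus strand, 1 coding exon), the plasma membrane thiamine transporter, fell by 2.39 in OLE1met250 and rose by 1.68 with the SPT23 fragment and by 1.89 with the MGA2 fragment, all with the table's lowest q (0.000304). Per the authors' deposited table it was at -0.47 in ArgonST (q 0.0833) and 0.24 in ArgonLT (q 0.410). The same set of calls over the 5 comparisons was held by 8 of the 6709 genes, THI7 included, with a q of 1 counted as no call. For the other members this number lay between 14 for THI20 and 310 for THI2. The members were chosen by these same values, so nothing is read from these numbers. THI73 (YLR004C, chromosome XII, 157934 to 159505, minus strand, 1 coding exon) encodes a putative permease of the allantoate permease family whose substrate is not established. THI73 fell by 4.10 in OLE1met250 (q 0.000304) and rose by 1.67 with the MGA2 fragment (q 0.00239) and by 1.80 in ArgonLT (q 0.0441). With the SPT23 fragment it was at -0.96 (q 0.0755), and in ArgonST at 0.79 with a q of 1.

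PHO3 (YBR092C, chromosome II, 427698 to 429101, minus strand, 1 coding exon), the thiamine-repressible acid phosphatase of the cell surface, was called lower in 3 comparisons and higher in none. Per the authors' deposited table its log2 was -2.02 in OLE1met250, -1.35 with the MGA2 fragment and -3.13 in ArgonLT, all with a q of 0.000304. With the SPT23 fragment PHO3 was at -0.56 (q 0.0674) and in ArgonST at 0.11 (q 0.780). PHO5, the phosphate-repressible acid phosphatase, lies next to PHO3 in the same orientation with 446 bases between them. PHO5 rose by 1.26 with the MGA2 fragment (q 0.00259) and by 2.56 in ArgonLT (q 0.000304), while in OLE1met250 it was at 0.36 (q 0.245). Thus with the MGA2 fragment and in ArgonLT these neighbours were called in opposite directions, although their coding sequences are 86.5% identical with a longest identical run of 98 bases, over which reads could be assigned to either gene. The other acid phosphatase genes gave no call: DIA3 was tested in 2 comparisons without passing, and PHO11 and PHO12 had a q of 1 throughout.

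The bases before PHO3 and PHO5 are shown because this pair diverged in the data. Each line gives the bases from 300 to 101 before the start codon on the gene's own strand (minus), from the RefSeq genome of build R64, at chrII:429202-429401 for PHO3 and chrII:431052-431251 for PHO5. The capitals mark CACGTG, a core bound by Pho4 and by Cbf1, which begins 253 bases before the start codon of PHO5.
PHO3: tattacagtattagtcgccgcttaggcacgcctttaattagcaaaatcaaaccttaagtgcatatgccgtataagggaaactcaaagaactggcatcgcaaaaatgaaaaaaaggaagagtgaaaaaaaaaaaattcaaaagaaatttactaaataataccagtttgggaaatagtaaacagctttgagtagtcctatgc
PHO5: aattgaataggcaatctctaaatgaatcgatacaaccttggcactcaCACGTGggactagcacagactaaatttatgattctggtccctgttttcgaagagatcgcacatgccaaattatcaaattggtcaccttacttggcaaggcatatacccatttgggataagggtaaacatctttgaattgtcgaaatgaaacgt
Searched on both strands of the 300 bases before the start codon, CACGTG was in none of the 10 members' windows and in 3.57% of 6001 windows of all genes. The windows of PHO3 and PHO5 were 53.6% identical.

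Both regulator genes among the members fell in OLE1met250. THI2 (YBR240C, chromosome II, 700490 to 701842, minus strand, 1 coding exon), the zinc-cluster activator of the thiamine genes, fell by 3.46 (q 0.000304). It was at 0.85 with the MGA2 fragment (q 0.0764) and 1.00 in ArgonLT (q 0.0719) in the authors' deposited table, and had a q of 1 in the other 2 comparisons. THI3 (YDL080C, chromosome IV, 310642 to 312471, minus strand, 1 coding exon), a relative of pyruvate decarboxylase that senses thiamine diphosphate, fell by 1.49 in OLE1met250 (q 0.000304) and rose by 0.74 in ArgonLT (q 0.00545). Its values were -0.10, 0.52 and 0.42 with the SPT23 fragment, with the MGA2 fragment and in ArgonST. PDC2, the third regulator, which is no member, was at -0.50 in OLE1met250 (q 0.0768) and fell by 0.65 with the SPT23 fragment (q 0.0315), and was called in no other comparison.

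Promoter windows of THI2, THI4 and THI73, the members with the largest falls in OLE1met250, are shown from 300 to 101 bases before the start codon, each on the gene's own strand, from the RefSeq genome of build R64. They lie at chrII:701943-702142 on the minus strand for THI2, chrVII:780099-780298 on the plus strand for THI4 and chrXII:159606-159805 on the minus strand for THI73. The capitals mark TGACTCA, the letters bound by Gcn4, the activator of amino acid synthesis genes, which begins 250 bases before the start codon of THI2.
THI2: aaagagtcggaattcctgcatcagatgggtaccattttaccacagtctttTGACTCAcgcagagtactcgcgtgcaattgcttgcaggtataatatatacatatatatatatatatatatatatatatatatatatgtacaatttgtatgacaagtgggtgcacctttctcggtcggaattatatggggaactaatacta
THI4: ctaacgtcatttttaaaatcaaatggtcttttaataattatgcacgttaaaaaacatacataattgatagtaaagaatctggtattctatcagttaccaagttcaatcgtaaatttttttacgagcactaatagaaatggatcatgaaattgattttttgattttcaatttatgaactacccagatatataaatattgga
THI73: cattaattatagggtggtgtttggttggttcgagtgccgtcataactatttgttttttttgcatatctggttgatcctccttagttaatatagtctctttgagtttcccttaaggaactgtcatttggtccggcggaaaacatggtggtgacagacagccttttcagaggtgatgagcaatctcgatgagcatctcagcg
TGACTCA was in 1 of the 10 members' windows, that of THI2, and in 2.62% of 6001 windows of all genes, searched on both strands over 300 bases. AAACTGTGG (Met31 and Met32), ACTCAACAA (the low oxygen response element) and TCGTATA (Upc2 and Ecm22) were in none of the members' windows and in 0.533%, 0.183% and 4.62% of all windows. The end of TGACTCA matches the start of ACTCAACAA, so a base could count for both. These matches describe letters and not bound sites.

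**Figure D2:**
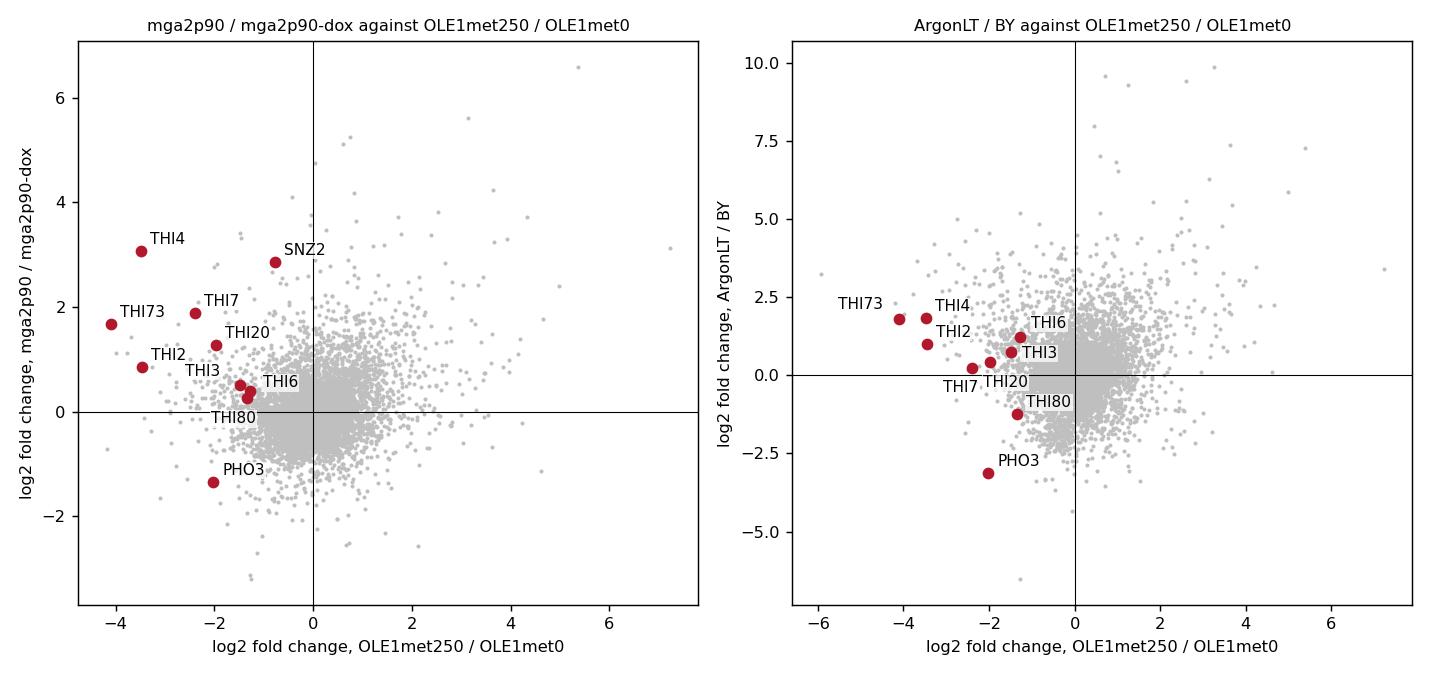
Log2 fold change with the MGA2 fragment (left, y axis) and in ArgonLT (right, y axis) against that in OLE1met250 (x axes), from the authors' deposited table, for genes tested in both with finite values (grey) and for the members (red). On the left, 9 members lie in the upper left, and of these THI4, THI7, THI20 and THI73 were called on both axes. PHO3 lies below 0 on every axis.

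The opposite directions for which the genes were selected can be counted. THI4, THI7, THI20 and THI73, 4 of the 10 members tested in both, were lower in OLE1met250 and higher with the MGA2 fragment, as were 90 of all 5552 genes tested in both (1.62%) in the authors' deposited table. MGA2 itself was called higher in both of these comparisons (4.33 and 3.73). THI3, THI4, THI6 and THI73, 4 of 9, were lower in OLE1met250 and higher in ArgonLT, as were 286 of 5628 genes (5.08%). THI4 and THI73 belonged to both sets, which had 63 genes in common. PHO3 and THI80 were lower in both OLE1met250 and ArgonLT, as were 166 genes (2.95%), and PHO3 was lower with the MGA2 fragment as well. THI2 and SNZ2 were called in 1 comparison each. PHO3 and THI80 were called lower wherever they were called, and THI3, THI4, THI6, THI7, THI20 and THI73 were called in both directions.

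The other genes of thiamine and pyridoxine metabolism, a list of 22 that holds no member, followed the members in part. In OLE1met250, 8 of 19 tested fell and 1 rose (median -0.82), beside 14.5% and 16.7% of all tested genes. PET18, a gene with weak similarity to thiamine metabolism proteins, fell by 3.06, BUD16, the pyridoxal kinase, by 2.70, PDX3, the pyridoxine phosphate oxidase, by 1.57 and SNZ1 by 1.47. THI74, a mitochondrial membrane transporter gene repressed by thiamine, was called at -1.56. The rise was that of YPR127W, a putative pyridoxine dehydrogenase gene, at 0.85 (q 0.00279). SNO1, THI21 and THI72 had the remaining falls, with -1.29, -0.93 and -0.90 in the authors' deposited table.

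With the MGA2 fragment, 8 of 19 tested genes of that list rose and none fell (median 0.22 over the 18 with a finite value), beside 12.2% and 8.58% of all tested genes. SNZ1 rose by 3.41 and its divergent neighbour SNO1 by 2.36, PET18 by 1.79, THI22, a relative of THI20, by 1.74 and TPN1, the plasma membrane pyridoxine transporter, by 0.79. In the authors' deposited table THI11 rose by 1.59 (q 0.0484), SNZ3 was given above, and THI12 was called with no finite ratio, which was read as a value of 0 in the reference. The genes THI5, THI11, THI12 and THI13 are between 97.8% and 99.3% identical in their coding sequences, so their values are uncertain. In ArgonLT, 9 of 15 rose and none fell (median 0.81), beside 24.1% and 18.4% of all tested genes. The rises were led by SNZ1 at 3.96, SNO1 at 3.57, THI72 at 1.71 and THI22 at 1.47. PDX3 (1.00), TPC1, the mitochondrial carrier of thiamine diphosphate (1.00), BUD17 (0.81), BUD16 (0.65) and NRT1 (0.62) rose as well.

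**Figure D3:**
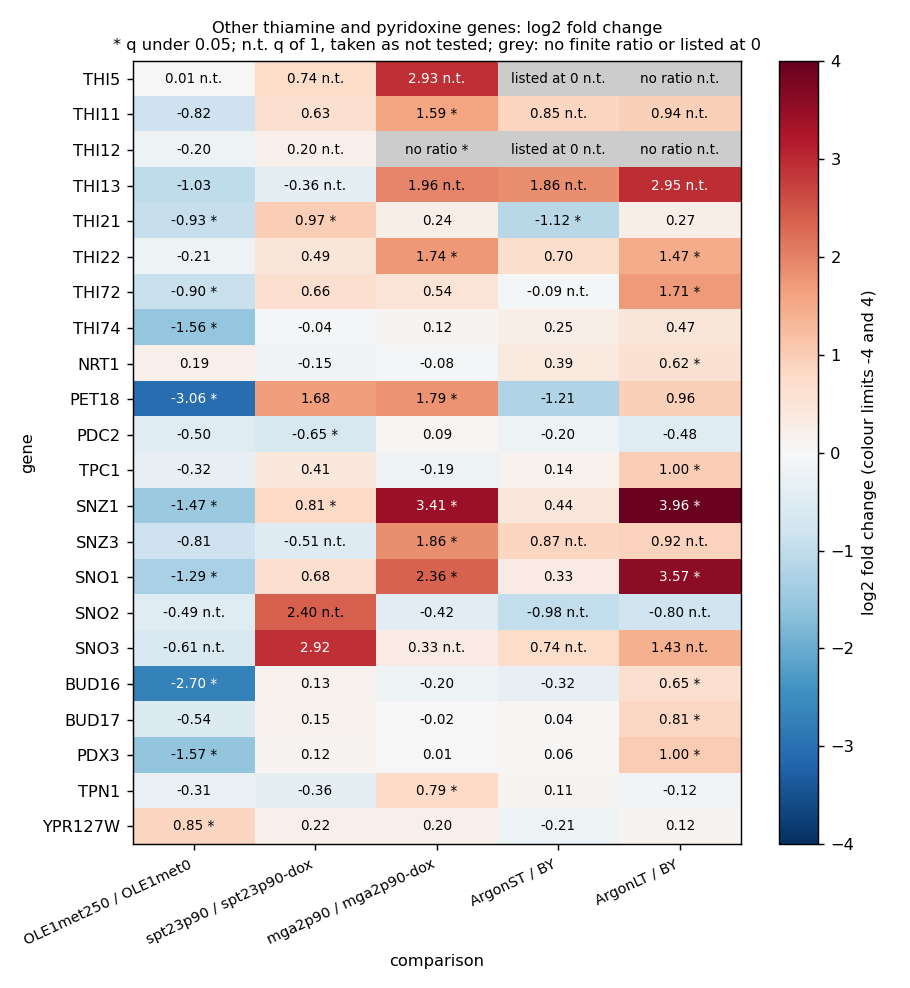
Log2 fold change (colour and printed value) of 22 other thiamine and pyridoxine genes (y axis) in the 5 comparisons (x axis), from the authors' deposited table. Asterisks mark a q under 0.05, n.t. a q of 1, and grey cells have no finite ratio or are listed at 0. SNZ1 and SNO1 are marked lower in OLE1met250 and higher with the MGA2 fragment and in ArgonLT.

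Calls were fewer in the other comparisons. With the SPT23 fragment, 2 of 17 tested genes of the list rose (median 0.41), THI21 by 0.97 and SNZ1 by 0.81, and PDC2 fell, and in ArgonST 1 of 14 fell (median 0.08), THI21 by 1.12 (q 0.0176) in the authors' deposited table. Over all tested genes 6.86% rose with the SPT23 fragment and 2.41% fell in ArgonST, so these counts were near the background. THI21, a kinase gene with 82.1% coding identity to THI20, was thus lower in OLE1met250 and ArgonST and higher with the SPT23 fragment, whereas THI20 was called in OLE1met250 and with the MGA2 fragment. The promoter windows of SNZ1, SNO1 and NRT1 held TGACTCA, found in 2.62% of all windows. The windows of the divergent neighbours SNZ1 and SNO1 overlap, and the match of SNZ1 is also a match of SNO1. Those of THI5, THI11, THI12 and THI13, which are close copies, held TCGTATA, found in 4.62% of all windows.

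**Figure D4:**
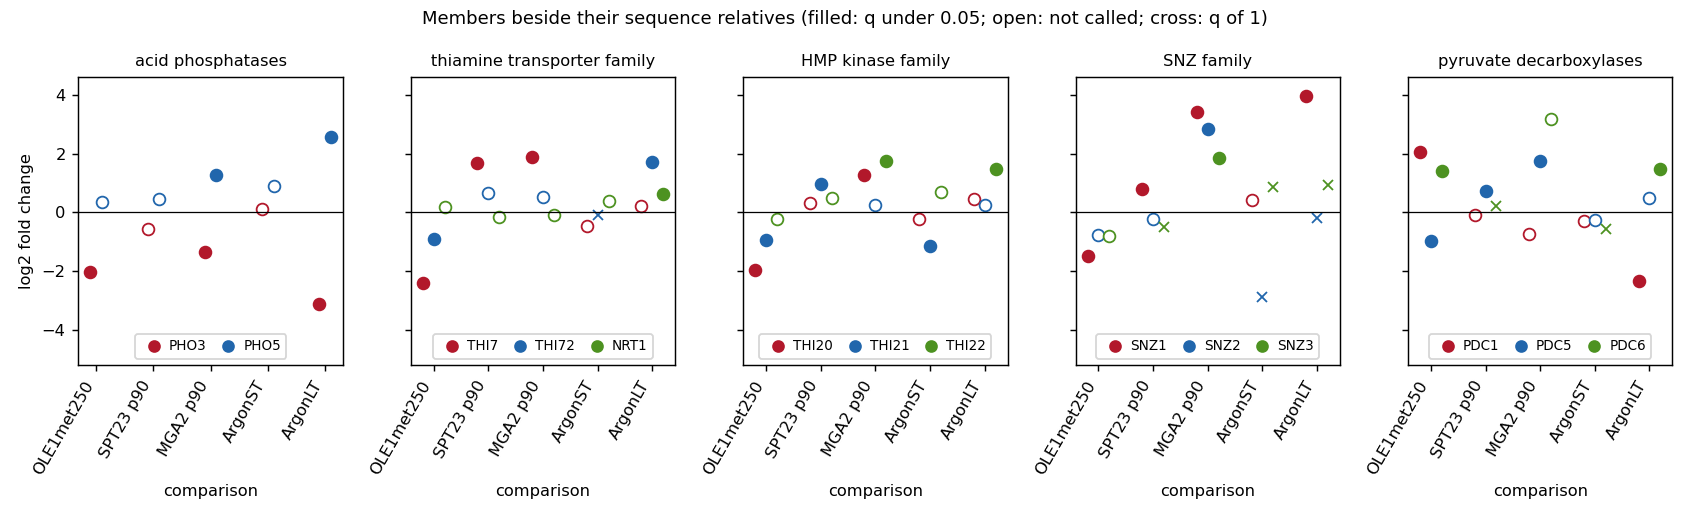
Log2 fold change (y axis) in the 5 comparisons (x axis) of PHO3, THI7, THI20 and SNZ2 beside their sequence relatives, and of the pyruvate decarboxylase genes, from the authors' deposited table. HMP kinase denotes the kinase of the hydroxymethylpyrimidine precursor, and filled points passed a q under 0.05, open points did not, and crosses have a q of 1. PHO3 and PHO5 lie on opposite sides of 0 with filled points for the MGA2 fragment (-1.35 and 1.26) and for ArgonLT (-3.13 and 2.56).

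Relatives of THI7 were called in ArgonLT, where THI7 was not. THI72, of 84.0% coding identity to THI7, rose by 1.71 (q 0.00378) and NRT1, the nicotinamide riboside transporter, by 0.62 (q 0.0193), while THI7 was at 0.24 (q 0.410) in the authors' deposited table. With the MGA2 fragment, THI7 rose by 1.89 and THI72 was at 0.54 (q 0.289). The difference between family members was not tested. Of 7 permease genes related to THI73, 6 rose in ArgonLT (median 1.03), where 24.1% of all tested genes did, among them SEO1 at 2.62, YCT1, a cysteine transporter gene, at 2.15 and VHT1, the biotin transporter gene, at 2.14. None of those 7 fell in OLE1met250, where THI73 fell and SEO1 and TNA1 rose by 1.72 and 1.43. Over all tested genes, 14.5% were called lower and 16.7% higher there, and with 7 genes nothing is read from these counts. With the MGA2 fragment, where THI73 rose by 1.67, 3 of 6 tested relatives rose and none fell, beside 12.2% and 8.58% of all tested genes. They were VHT1 (3.77), SEO1 (3.71) and FEN2 (0.66). Of the uracil, allantoin and uridine permease genes related to THI7, FUR4 fell by 1.10 with the MGA2 fragment and FUI1 rose by 1.94 in ArgonLT.

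Genes of the enzymes that use thiamine diphosphate were called in both directions. PDC1, the main pyruvate decarboxylase, rose by 2.06 in OLE1met250 and fell by 2.32 in ArgonLT (both q 0.000304). PDC5, its relative with 87.2% coding identity, fell by 0.97 in OLE1met250 and rose by 1.74 with the MGA2 fragment and by 0.73 with that of SPT23, per the authors' deposited table. PDC5 thus had the same directions as THI7 in those 3 comparisons. Of 10 such genes, 3 rose and 2 fell in OLE1met250 (median -0.01), the rises being PDC1, PDC6 (1.43) and TKL2, a transketolase (0.86), and the falls PDC5 and ILV2, the acetolactate synthase (-1.46). With the MGA2 fragment 3 of 10 rose (median 0.26), PDC5, ARO10 (1.52) and TKL2 (1.30). In ArgonLT 3 of 10 rose (median 0.19), ARO10 (1.30), PDC6 (1.49) and ILV2, and PDC1 fell. Over all tested genes 16.7% rose and 14.5% fell in OLE1met250, 12.2% rose with the MGA2 fragment, and 24.1% rose and 18.4% fell in ArgonLT. With 10 genes, the counts in OLE1met250 and ArgonLT lay near those shares, and nothing is read from them about these enzymes as a group.

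The 20 genes directly beside the members were called in either direction. In OLE1met250 4 of 15 tested fell and 1 rose, beside 14.5% and 16.7% of all tested genes. With the MGA2 fragment 3 of 16 rose and 1 fell, beside 12.2% and 8.58%. Those rises were MRK1, PHO5, a relative of PHO3, and THI12, a gene of the Thi5 family with no finite ratio. In ArgonLT 5 of 15 rose and 4 fell, beside 24.1% and 18.4%. None of 15 was called by the authors' Cuffdiff q with the SPT23 fragment, beside 6.86% of all tested genes higher and 5.49% lower. In ArgonST 1 of 15 fell and none rose, beside 2.41% and 4.86%. With so few genes, nothing is read from these counts about the neighbours. In the authors' deposited table MRK1, a protein kinase gene next to THI3, fell by 1.33 in OLE1met250 and rose by 0.91 with the MGA2 fragment and by 1.03 in ArgonLT, the directions of the values of THI3. SSL1, next to THI73, fell by 0.93 in OLE1met250, where THI73 was at -4.10. Other neighbours moved against their member: in ArgonLT, CMS1, on the other side of THI73, fell by 1.16 and ENP2, next to THI4, fell by 0.81, while THI73 and THI4 rose by 1.80 and 1.83.

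The members differed in how near they lay to their own median profile of -2.00 in OLE1met250, 0.0060 with the SPT23 fragment, 1.06 with the MGA2 fragment, -0.13 in ArgonST and 0.59 in ArgonLT, taken over all 10 genes with or without a q of 1. THI20 was nearest, at a Euclidean distance of 0.41 on the log2 scale, and PHO3 farthest, at 4.47. Among 1816 other genes with finite values throughout and at least 2 calls, COG1, of the Golgi tethering complex, was nearest at 0.73, followed by CAF16 at 0.74, RIB7, of riboflavin (vitamin B2) synthesis, at 0.76, DSE2 at 0.86, RTG3, of the retrograde signalling pathway, at 0.87, SIR1, of mating-type silencing, at 0.91, SNX41, a sorting nexin gene, at 0.94 and LYS14, the activator of lysine synthesis genes, at 0.95. RIB7 fell by 1.39 in OLE1met250 and rose by 1.24 with the MGA2 fragment and by 0.84 in ArgonLT in the authors' deposited table. These distances rest on 5 values, 2 of which share the BY libraries, and ranking by Pearson correlation kept RIB7 and DSE2 among the nearest 8.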

How the data were processed

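Log2 fold changes and q values for 5 pairwise comparisons were taken as the authors deposited them, in 1 table without columns per library. Per the file headers, its blocks hold log2 differential expression, read as the first named group over the second, and q values. Per the submitters' processing notes, Trimmomatic 0.33, TopHat2 2.0.14 and Cuffdiff 2.2.1 were used with genome build R64. The sources used here give neither the settings nor the annotation, nor whether strand was used.

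Beside 4 emptied lines, the table holds 6709 genes. Values listed at 10 or -10 were read as having no finite ratio, and a q of 1 as not tested. The call was a q under 0.05, and no test across genes was run here. Genes were named by rule: the members, called genes of fixed lists, neighbours, and the 8 genes nearest to the members' median profile. The members and lists were chosen with earlier results of these data known.

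Positions and sequences come from the RefSeq annotation and genome of R64. All 10 members matched it by systematic name, with the table's start 1 base lower and the same end. Coding sequences were aligned with Biopython 1.88, and motifs were searched in the 300 bases before each start codon. The 100 bases nearest the start codon are not shown, since they can be transcribed. The motif and distance steps were tested on simulated data. Alternatives were a q under 0.01, a minimum of 2-fold, subtraction of the median of tested genes, and leaving out genes with no finite ratio. Leaving out SNZ2 was added after the data were seen.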

Additional observations from a re-analysis of the deposited data

How the results depend on the processing

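No paired analysis was possible because the deposited table has no columns per library, and for the same reason no replicate could be left out in turn. The number of members called stayed within 1.5 times its value in all 5 comparisons under a q under 0.01, a minimum of 2-fold, subtraction of the median of tested genes, omission of genes with no finite ratio, and omission of SNZ2, which was chosen after the data were seen. Those numbers were 9 in OLE1met250, 1 with the SPT23 fragment and 0 in ArgonST under each of these settings, and 5 or 6 with the MGA2 fragment and in ArgonLT. Part of this was fixed in advance. All 10 members had finite values throughout, so omitting genes with no finite ratio could change nothing. Omitting SNZ2 could change only the number with the MGA2 fragment, where alone it was called. Subtracting the median left each q as it was. Of single genes, THI4 with the MGA2 fragment (log2 3.07) and THI73 in ArgonLT (1.80) were not called at a q under 0.01, and THI3 in ArgonLT (0.74) was below 2-fold. Subtracting the median of tested genes could not change the sign of a called value. Called genes had an absolute log2 of at least 0.51, and the median farthest from 0 was 0.09, in ArgonLT. The median of the members in ArgonLT was 0.74 among those tested and 0.59 with the gene at a q of 1 included. Ranking by Pearson correlation in place of Euclidean distance kept 2 of the 8 most similar genes. The depth is unknown, so what counting error adds to each value cannot be given.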
